A study of Micropterus salmoides with 68 samples.

Results

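Spleens of a farmed freshwater fish, the largemouth bass Micropterus salmoides, were compared between fish held for 1 day after a road transport and fish taken before it. The comparison rests on 8 of the 68 libraries of the study: the 4 spleen libraries of the 1 day recovery group against the 4 spleen libraries taken before transport, over all genes of the deposited table. Libraries are called here by their replicate number, as fish 1 to 4 of each group. A number shared before transport and after 1 day does not mean the same fish. Whether a number shared by liver and spleen does is not in the labels. The study sampled liver and spleen in 9 groups each: before transport, at its end, after 1 day, and after 3, 4 and 5 days in fish marked normal or abnormal, words that the labels do not define.

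The fish were fingerlings from 1 breeding farm, raised in a concrete pond and fed until the experiment. Those of the first group were taken from the pond and sampled at once after netting. Those of the second group had been packed at 125 fish in 30 L of aerated water, driven for 4 h, and then held unfed for 1 day in indoor tanks of 600 L in a room kept at 28 °C. No genetic or drug treatment was given to either group. Fish kept without transport were not analysed here, so transport, fasting, the change from pond to tank, handling and the hour of sampling cannot be told apart in any difference below. The labels do not say which box or tank each sampled fish came from, so the p-values measure a spread between libraries only. In the main spleen test that spread is pooled over the 9 spleen groups and is not that of the 8 compared libraries alone.

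The fish spleen stores and filters blood. It holds many nucleated red cells at several stages of maturation, macrophages that take up worn red cells and recycle their iron, and lymphocytes in a mesh of stromal and vessel cells. In stressed fish, cortisol acts through the glucocorticoid receptor on immune cells, neutrophils leave their stores for the blood, and low oxygen stabilises the HIF transcription factors. RNA from the whole organ mixes all these cells, so fewer cells of a type and less RNA per cell cannot be told apart.

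Expression is given in TPM, each transcript's length-corrected share of its library, and differences are differences of mean log2(TPM + 1) between the groups, which understate the change of low genes. The tissue label fitted its markers: tlx1, a transcription factor gene needed for spleen formation, lay between 69.7 and 401.5 TPM in the 8 spleens and at 0.05 to 0.28 TPM in the livers of the same 2 groups. The liver gene fabp10a was at 2.80 TPM or lower in these spleens and at 121 TPM or higher in those livers.

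The libraries of fish 3 and fish 4 after 1 day stood apart from the other 6. The 4 libraries before transport correlated with each other at Pearson r of 0.9292 to 0.95 over log2(TPM + 1) of the 17998 genes tested, and fish 1 and 2 after 1 day at 0.9579. With the libraries before transport, fish 1 and 2 correlated at 0.8877 to 0.9134, but fish 3 and 4 at 0.7352 to 0.777. In fish 3 the ribosomal protein gene rps3a took 27.5% of all TPM (274347 TPM against at most 3356 TPM in the other 7 libraries). The next were rps4x with 12.1% (120878 against at most 3234 TPM) and the cystatin gene cst3 with 5.45% (54335 against at most 1723 TPM). There were 31 genes with at least 1000 TPM in fish 3 and at least 10 times more than in each of the other 7 libraries, and none of that kind in fish 4. The median gene, set against its mean before transport, was lower in fish 1, 2 and 3, by 0.35, 0.44 and 0.68 on the log2 scale, and higher by 0.53 in fish 4. Of the 3672 genes with at least 20 TPM in every library before transport, 9 were listed at 0 in fish 4, 4 in fish 3, 1 in fish 2 and none in fish 1. One of them, atp5l, a subunit gene of mitochondrial ATP synthase, read 225, 213, 192 and 137 TPM before transport and 118, 105, 0 and 0 TPM after 1 day.

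The 10 most abundant genes of each library, ranked in that library, took 13.8% to 22.9% of its TPM before transport and 26.8% to 56.2% after 1 day. Because TPM is a share, a rise of such genes lowers all others. Each result was therefore recomputed after rescaling the libraries by the median ratio of their genes, or without 1 fixed set of 10 genes. It was also recomputed without fish 3 and 4, and again with that removal and the rescaling together. The fixed set, called the 10 most abundant genes below, has the highest means over the 34 spleen libraries. In fish 3 it leaves in cst3. The fit of the deposited values and these 4 fits all pool the spread of the 9 spleen groups. They assume that the libraries after 1 day vary like the other groups, although fish 3 and 4 stood apart. Without fish 3 and 4 they assume that fish 1 and 2 do. A gene called the same way in these 4 fits and in the fit of the deposited values is said below to hold in all 5 fits.

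Of 17998 genes tested, 3609 passed limma's moderated test at a Benjamini-Hochberg adjusted p of 0.05 (20.1%), 750 of them higher (4.17%) and 2859 lower (15.9%) after 1 day. The median gene differed by -0.23. Median-of-ratios rescaling brought the median to -0.05 and gave 2931 higher (16.3%) and 3241 lower genes (18.0%). Leaving out the 10 most abundant genes brought it to 0.16 and gave 3638 higher (20.1%) and 1520 lower (8.41%), so the balance of rises and falls depended on the scaling. Without fish 3 and 4 there were 372 higher (2.07%) and 2182 lower genes (12.1%), which include 43.5% of the 750 and 45.3% of the 2859, and no gene was called in opposite directions. Without fish 3 alone 1838 genes passed, and without fish 4 alone 6454. Only 987 genes held in all 5 fits (5.48%), 322 higher (1.79%) and 665 lower (3.69%), and the accounts below lead with these. When only the 8 compared libraries were fitted, 532 genes passed (3.11%), 158 higher (0.924%) and 374 lower (2.19%). Genes described below as holding in all 5 fits that did not pass in that smaller fit were cpox, urod, klf1, tal1, fth1a, fech, nfe2, c1qb, cat, ctsk, hexb, ctsa, wipi1, ctsz, il2rb, ccbe1, cnn1b, cdh11, postnb, col1a1b, mych, myca, nr4a3, socs3a, foxo3a, csf1b, nfkbiab, p4ha2, bnip3la, gsr, got1, rfc5, sesn1, btg1, sesn2 and sqlea (limma adjusted p = 0.0508 to 0.319). 

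**Figure D1:**
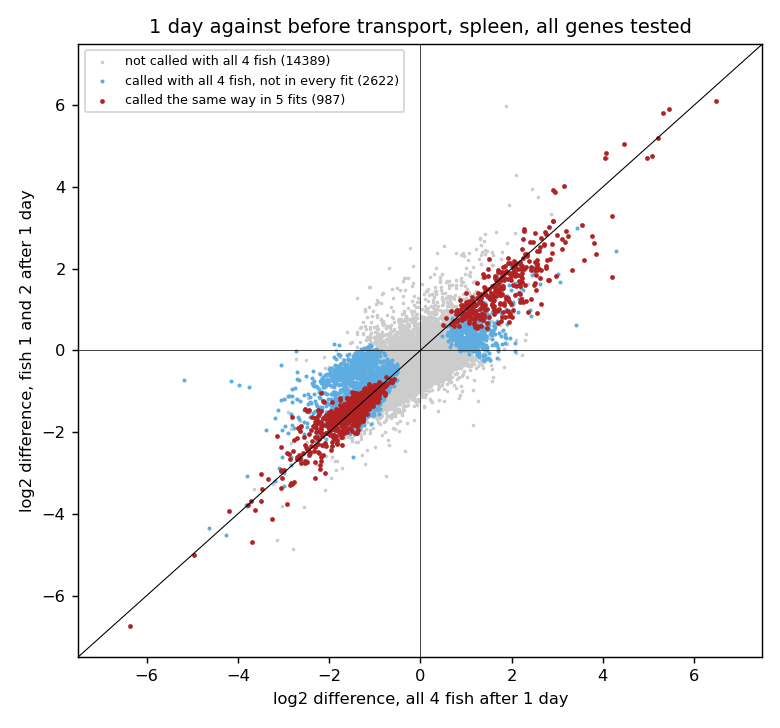
Log2 difference of each gene, 1 day minus before transport, with all 4 fish (horizontal axis) and with fish 1 and 2 after 1 day (vertical axis), each point 1 of 17998 genes tested. Red points are the 987 genes called the same way in 5 fits, blue points the other called genes, grey points genes not called; blue points near the horizontal axis are genes whose difference rests on fish 3 and 4.

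Genes of the red-cell list, which holds no globin gene, were higher after 1 day. All 18 members of that list were tested and rose, where 4.17% of all genes did. The rises of 16 of them held in all 5 fits, where those of 1.79% of all genes did. The median log2 difference of the list was 2.20 against -0.23 over all genes. The globin gene hbae5, described below, did not pass the test. In 16 of the 18 the 4 libraries after 1 day lay above all 4 before transport, which 3.38% of all genes did. With only the 8 libraries fitted 11 of the 18 passed, where 0.924% of all genes passed as higher. The rise was seen on its own in fish 1 and 2, whose median differences for the list were 1.78 and 1.77, in fish 3 (1.49) and in fish 4 (3.79).

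Beta-spectrin, the sptb product, and ankyrin, the ank1a product, form the skeleton under the red-cell membrane. The gene sptb read 7.21, 13.3, 8.74 and 9.07 TPM before transport and 51.4, 53.6, 180.4 and 949 TPM after 1 day (log2 difference 3.85, SE 0.56, limma adjusted p = 4.47e-05). For ank1a the values were 5.26, 6.54, 4.94 and 4.71 TPM before transport and 23.9, 23.2, 67.8 and 390.4 TPM after 1 day (log2 difference 3.33, SE 0.54, limma adjusted p = 0.000147). The groups did not overlap for either gene, fish 1 and 2 were alike, fish 3 was higher and fish 4 the highest by far. Without fish 3 and 4 the differences were 2.37 and 1.96, smaller than with all 4 fish.

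Haem synthesis genes rose at both ends of the pathway. The first enzyme in red cells is encoded by alas2, which read 180.3, 287, 163 and 196 TPM before transport and 1007, 1169.6, 612 and 3113 TPM after 1 day (log2 difference 2.60, SE 0.50, limma adjusted p = 0.000933). Its uroporphyrinogen synthase, uros, read 17.7, 24, 13.5 and 14.7 TPM before transport and 53.7, 54.9, 37.8 and 78.9 TPM after 1 day (log2 difference 1.62, SE 0.25, limma adjusted p = 0.0001). Both genes were higher in every library after 1 day than in any before, with fish 3 the lowest and fish 4 the highest of the 4. Later enzyme genes of the pathway rose on the log2 scale by 1.17 (urod), 1.29 (cpox) and 2.18 (fech, which inserts the iron). For urod the groups overlapped, since fish 3 lay at 25 TPM, below the 31.3 TPM of fish 2 before transport.

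The regulators of red-cell maturation moved in the same direction. Values of gata1a, the lead transcription factor of the lineage, were 14.3, 19, 17.2 and 14.7 TPM before transport and 72.6, 73.8, 30.6 and 163 TPM after 1 day (log2 difference 2.09, SE 0.35, limma adjusted p = 0.000234). Its partner klf1 ran from 4.25 to 18.5 TPM before transport and from 21.5 to 144 TPM after 1 day (log2 difference 2.21, limma adjusted p = 0.000905), and epor, the receptor for erythropoietin, from 9.88 to 24.4 TPM before transport and from 58.8 to 297 TPM after 1 day (log2 difference 2.55, limma adjusted p = 0.000291). None of these 3 overlapped between the groups. The factor gene tal1 rose by 1.29, but fish 3, at 17.3 TPM, lay among the libraries before transport.

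Genes of red-cell surface proteins and enzymes rose as well, some of them less securely. The blood group gene rhd ran from 13.7 to 22.3 TPM before transport and from 31.8 to 109.8 TPM after 1 day (log2 difference 1.93, limma adjusted p = 0.00106) and the carbonic anhydrase gene cahz from 111 to 215 TPM before transport and from 537 to 3269 TPM after 1 day (log2 difference 2.60, limma adjusted p = 0.000916). The anion exchanger gene slc4a1a (log2 difference 2.49, limma adjusted p = 0.00541) and the blood group gene kel (log2 difference 1.85, limma adjusted p = 0.00377) rose with all 4 fish. Without fish 3 and 4 neither passed, at limma adjusted p = 0.0693 and 0.061.

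**Figure D2:**
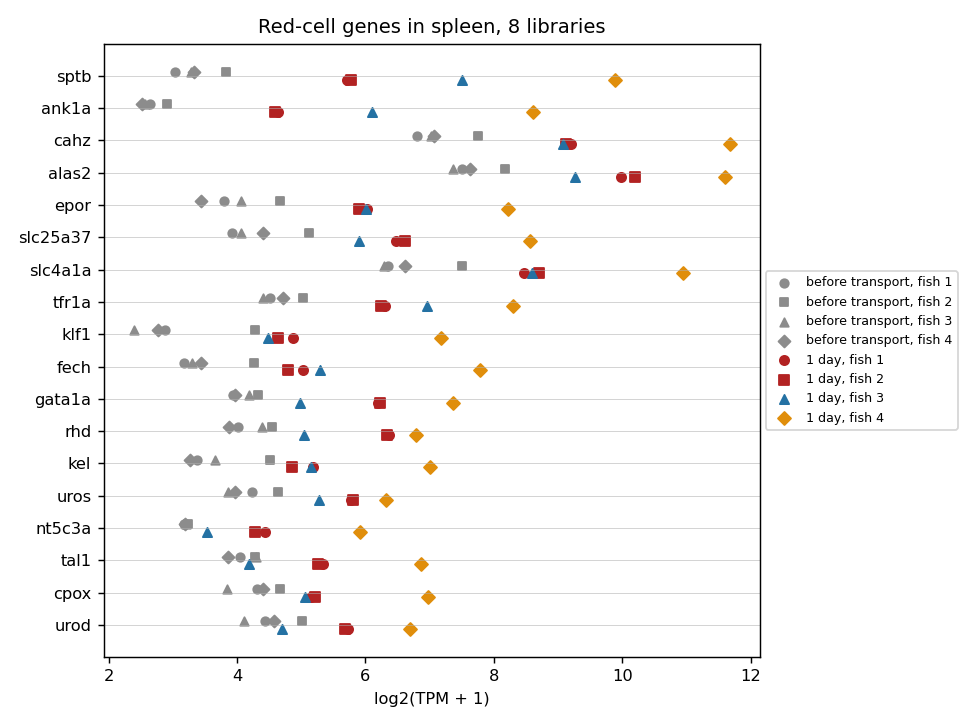
Level of the 18 tested red-cell genes in the 8 spleen libraries, as log2(TPM + 1), ordered by the size of the difference; grey symbols are the 4 fish before transport and coloured symbols the 4 fish after 1 day. Fish 4 (orange) is the highest of all 8 in each of the 18 genes, and fish 3 (blue) falls among the grey symbols for urod and tal1.

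The most abundant gene of the 8 libraries by mean TPM was hbae5, an alpha-type globin gene, which read 35337, 71664, 41595 and 31026 TPM before transport and 143167, 148386, 20673 and 88791 TPM after 1 day. Fish 1 and 2 were about alike and above all fish before transport, fish 4 was lower but still above them, and fish 3 was below every one of them. Over the 4 fish the difference was not past the test (log2 difference 0.89, SE 0.69, limma adjusted p = 0.382). Without fish 3 and 4 it was 1.78 (limma adjusted p = 0.107), also not past it.

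A further 8 loci carry only a locus number in the files and in the RefSeq gene table, so no name or role is given to them here, and they were picked after their values were seen. Their entries fall within 10 successive rows of that table. The abundant pair among them had its highest levels in fish 1 and 2 and its lowest in fish 3, as hbae5 did: LOC119891502 read 14543, 31541, 20764 and 15426 TPM before transport and 94957, 107475, 13257 and 54155 TPM after 1 day. Without fish 3 and 4 it and LOC119891526 differed by 2.37 and 2.34 (limma adjusted p = 0.00921 and 0.013), and with all 4 fish neither passed (limma adjusted p = 0.0773 and 0.107).

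The other 6 of these loci were low before transport. Their rises passed with all 4 fish, after median-of-ratios rescaling, without fish 3 and 4, and with that rescaling and removal together. LOC119891494 read 23.5, 68.8, 118 and 86.3 TPM before transport and 1092, 3175, 357 and 1156 TPM after 1 day, and LOC119891473 read 8.74, 9.72, 29 and 22 TPM before transport and 512, 1629.7, 278 and 771 TPM after 1 day. Fish 2 was the highest and fish 3 the lowest in both, and no library after 1 day overlapped the group before. Log2 differences of the 6 ran from 4.06 to 5.45, with limma adjusted p from 0.000908 to 0.00582, and LOC119891480 and LOC119891487 were listed at 0 in fish 1 before transport. Near-identical copies can share reads, and whether the counting split reads between these loci was not tested. Of the 20 largest rises that held in all 5 fits, 16 belonged to genes with a locus number alone, as did 9 of the 20 largest falls.

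Iron import rose together with the red-cell genes. The transferrin receptor gene tfr1a, which brings iron into the cell, read 21.8, 31.5, 20.2 and 25.3 TPM before transport and 77.8, 74.3, 124 and 315 TPM after 1 day (log2 difference 2.29, SE 0.32, limma adjusted p = 2.82e-05). Mitoferrin-1, the mitochondrial iron carrier made by slc25a37, read 14.1, 33.9, 15.6 and 20.1 TPM before transport and 88.3, 97, 58.9 and 379 TPM after 1 day (log2 difference 2.52, SE 0.40, limma adjusted p = 0.00013). Ferritin heavy chain, the iron store encoded by fth1a, read 1967, 2621, 1879.8 and 1777 TPM before transport and 5386, 5108, 4578 and 5827 TPM after 1 day (log2 difference 1.35, SE 0.25, limma adjusted p = 0.000521). No library of 1 group reached the other in these 3 genes, and fth1a differed little among the 4 fish after 1 day. Of 15 tested genes of the haem and iron list 5 rose (33.3% against 4.17% of all genes), each of them in all 5 fits, where 1.79% of all genes did. These 5 include alas2, fech, tfr1a and slc25a37, which are also in the red-cell list. Of the 15 genes 1 fell (6.67% against 15.9% of all genes), and the median was 0.25. The fall was that of slc40a1, the iron exporter of macrophages (log2 difference -1.49, limma adjusted p = 0.0229), which did not pass without fish 2 or fish 4 of the group before transport (limma adjusted p = 0.0612 and 0.0643) or without fish 3 after 1 day (0.159).

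Granulocyte genes were mixed, with a few large rises. Of the rises with a gene symbol the largest in size was that of mmp9, a gelatinase stored in neutrophil granules, which read 5.09, 6.11, 6.58 and 12.5 TPM before transport and 714, 443, 617 and 1417 TPM after 1 day (log2 difference 6.48, SE 0.85, limma adjusted p = 1.3e-05). Every fish after 1 day was above all fish before transport by a wide margin, and fish 4 was the highest. The granulocyte factor gene cebp1 read 1.96, 1.5, 1.31 and 3.82 TPM before transport and 24.5, 17.1, 17.9 and 37.5 TPM after 1 day (log2 difference 3.00, SE 0.61, limma adjusted p = 0.0013). Values of alox5a, the 5-lipoxygenase that starts leukotriene synthesis, were 0.99, 0.34, 1.00 and 2.33 TPM before transport and 13.8, 13.6, 7.03 and 20.1 TPM after 1 day (log2 difference 2.75, SE 0.52, limma adjusted p = 0.000683). Both were below 4 TPM in every fish before transport and above 7 TPM in every fish after 1 day. Also nccrp1, a receptor gene first described in fish cytotoxic cells, rose (log2 difference 2.71, limma adjusted p = 0.00182). These 4 of the 12 granulocyte genes tested held in all 5 fits, where the rises of 1.79% of all genes did. A rise of ncf1 and a fall of s100a10b did not pass without fish 3 and 4 (limma adjusted p = 0.116 and 0.895), and the other 6 genes did not pass. The list thus had 5 rises (41.7% against 4.17% of all genes), 1 fall (8.33% against 15.9%) and a median of 0.51. The receptor gene csf3r, which is needed to make neutrophils, was among those 6.

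Thrombocytes are the nucleated fish counterpart of platelets. Of their 11 tested genes 2 rose (18.2% against 4.17% of all genes), with a median of 0.19. The transcription factor gene nfe2 rose in all 5 fits (log2 difference 1.53, limma adjusted p = 0.0031). Which cells its rise came from was not tested. A rise of gp9, a subunit gene of the von Willebrand receptor (log2 difference 1.12, limma adjusted p = 0.0117), did not pass without fish 3 and 4 (limma adjusted p = 0.0768). Of 13 B-cell genes 1 rose (7.69% against 4.17% of all genes), and the median was -0.25. It was cd22, an inhibitory receptor gene (log2 difference 1.48, limma adjusted p = 0.0306), which did not pass without fish 3 and 4. The B-cell receptor subunit gene cd79a read 81.3, 74.1, 79 and 88.5 TPM before transport and 132, 60.5, 20.4 and 68.1 TPM after 1 day. The groups overlapped, with the highest and the lowest of the 8 values both after 1 day.

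Macrophage and dendritic-cell genes had medians below those of all genes in fish 1, 2 and 3. Of 17 tested, 6 fell and none rose (35.3% against 15.9% of all genes), with a median of -0.81, and 4 held in all 5 fits, as did the falls of 3.69% of all genes. The complement gene c1qb, made by tissue macrophages, read 1699, 2553, 1401 and 1808 TPM before transport and 525, 737, 173 and 688 TPM after 1 day (log2 difference -1.97, SE 0.39, limma adjusted p = 0.00105). For batf3, the transcription factor of cross-presenting dendritic cells, values were 77.2, 83.5, 36 and 62.6 TPM before transport and 13.5, 18.9, 2.06 and 9.45 TPM after 1 day (log2 difference -2.68, SE 0.47, limma adjusted p = 0.000364). The progranulin gene grna read 816, 691, 535 and 1161 TPM before transport and 245, 297, 174 and 164 TPM after 1 day (log2 difference -1.85, SE 0.35, limma adjusted p = 0.000681). In all 3 every fish after 1 day was below every fish before, and fish 3 was the lowest or close to it. The fourth was spi1a, a gene of the type of the myeloid factor PU.1 (log2 difference -1.73, limma adjusted p = 0.00108). Its relative spi1b, in the same list, did not pass the test. In single fish the median of the list was -1.37, -1.21 and -1.24 in fish 1 to 3 but 0.59 in fish 4. The median over all genes was -0.35, -0.44 and -0.68 in fish 1 to 3 and 0.53 in fish 4. The summed level of the list was 2862 to 6088 TPM before transport and 1057 to 3053 TPM after 1 day, with fish 4 the highest of the later group.

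Some lysosomal proteases and hydrolases, many of them abundant in macrophages, fell as well. Of 39 tested genes of the lysosome and autophagy list 28 did not pass, 10 fell (25.6% against 15.9% of all genes) and 1 rose. The list median was -0.42 against -0.23 over all genes, and 0.04 against 0.16 without the 10 most abundant genes. Of the falls 5 held in all 5 fits, where those of 3.69% of all genes did. The cathepsin gene ctsk ran from 127 to 221 TPM before transport and from 20.6 to 99.5 TPM after 1 day (log2 difference -1.80, limma adjusted p = 0.00241) and the hexosaminidase gene hexb from 107 to 290.1 TPM before transport and from 20.1 to 127 TPM after 1 day (log2 difference -1.65, limma adjusted p = 0.00585). The groups did not overlap for ctsk, whereas for hexb fish 4 after 1 day lay within the range before transport. The other 3 were ctsa, wipi1 and ctsz, of which ctsz did not pass without fish 3 (limma adjusted p = 0.0779).

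Few T and NK cell genes were called. Of 18 tested 3 fell and none rose, a share of 16.7% near the 15.9% of all genes that fell, with a median of -0.72. The interleukin-2 receptor gene il2rb read 82.8, 50.9, 105 and 124 TPM before transport and 30.8, 23.5, 17.5 and 46.5 TPM after 1 day (log2 difference -1.60, SE 0.43, limma adjusted p = 0.00901). It fell without overlap and in all 5 fits. The perforin gene prf1.5 (log2 difference -1.42, limma adjusted p = 0.00377) and the T-cell factor gene tcf7 (log2 difference -1.10, limma adjusted p = 0.0394) did not hold in every fit. Interferon response genes gave 3 falls of 22 (13.6%, median -0.40) and antigen presentation genes 3 of 17 (17.6%, median -0.50), also near the 15.9% of all genes. The 6 calls are 4 genes, since psmb8a, a subunit gene of the immunoproteasome, and ifi30, a thiol reductase gene of antigen processing, are in both lists. The others are irf8 and cd40, and none of the 4 passed without fish 3 and 4 (limma adjusted p = 0.0558 to 0.0816). Without the 10 most abundant genes the interferon median was 0.08, where that over all genes was 0.16.

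Of 33 tested genes of vessels and stroma 10 fell and none rose (30.3% against 15.9% of all genes, median -0.71). In all 5 fits 6 of them fell, where 3.69% of all genes did. The reticular stroma factor gene tcf21 read 644, 464, 595 and 454 TPM before transport and 151, 163, 56 and 95.4 TPM after 1 day (log2 difference -2.30, SE 0.42, limma adjusted p = 0.000476). For egfl7, which endothelial cells secrete, values were 81.8, 67.1, 70.6 and 90.9 TPM before transport and 25.5, 35.7, 12.3 and 29.3 TPM after 1 day (log2 difference -1.64, SE 0.32, limma adjusted p = 0.00105). The endothelial lectin gene clec14a ran from 29.7 to 39.1 TPM before transport and from 5.98 to 16.1 TPM after 1 day (log2 difference -1.60, limma adjusted p = 0.00153). All 3 were lower in each fish after 1 day, and fish 3 was the lowest. The others that held were ccbe1, cnn1b and cdh11, the last not without fish 3 alone (limma adjusted p = 0.0698). In the extracellular matrix list 8 of 34 fell (23.5% against 15.9% of all genes) and 2 rose (median -0.57). One of the rises is mmp9, described above. The matrix glycoprotein gene sparc read 606, 366, 490.1 and 618 TPM before transport and 138, 176, 54.9 and 165 TPM after 1 day (log2 difference -2.05, SE 0.44, limma adjusted p = 0.00205) and fell without overlap in all 5 fits, as did the periostin gene postnb (log2 difference -1.11, limma adjusted p = 0.00215). Fibrillar collagen genes fell less securely: col1a1b ran from 159 to 251 TPM before transport and from 27.9 to 177 TPM after 1 day (log2 difference -1.87, limma adjusted p = 0.0123) and did not pass without fish 3 (limma adjusted p = 0.0735). Fish 4 lay at 177 TPM, within the range before transport.

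**Figure D3:**
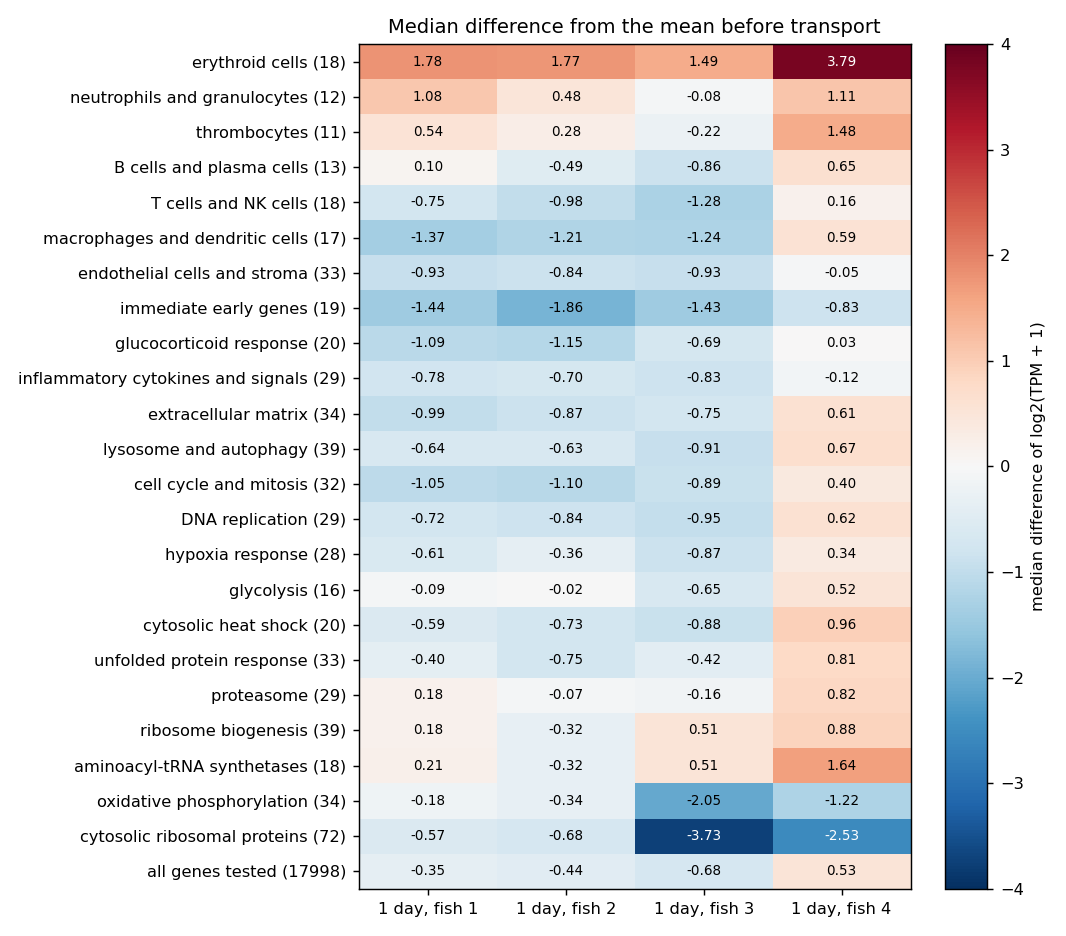
Median difference of log2(TPM + 1) from the mean before transport, for each gene list (rows, number of genes tested in brackets) in each of the 4 fish after 1 day (columns). Red-cell genes are higher in all 4 fish and immediate early genes lower in all 4, while ribosomal protein genes are at -3.73 and -2.53 in fish 3 and 4 against -0.57 and -0.68 in fish 1 and 2; the last row gives all genes.

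Immediate early genes, which are switched on within minutes of a stimulus, were lower after 1 day than before transport. Of 19 tested 12 fell (63.2% against 15.9% of all genes) and none rose, with a median of -1.17 against -0.23 over all genes. In 11 of the 19 every fish after 1 day was below every fish before, as in 12.6% of all genes. Of the falls 10 held in all 5 fits, where those of 3.69% of all genes did. Without fish 3 and 4 there were 14 falls, where 12.1% of all genes fell. The nuclear receptor gene nr4a1 read 20.4, 21.1, 29.8 and 22.3 TPM before transport and 1.34, 1.35, 1.06 and 5.13 TPM after 1 day (log2 difference -3.06, SE 0.35, limma adjusted p = 1.85e-06). For jund, a subunit of the transcription factor AP-1, values were 91, 123, 179 and 81.4 TPM before transport and 20.4, 14.1, 12.6 and 24.7 TPM after 1 day (log2 difference -2.64, SE 0.31, limma adjusted p = 2.32e-06). The zinc finger factor gene egr1 read 151, 93.2, 94.8 and 80.4 TPM before transport and 9.77, 9.72, 11 and 32.5 TPM after 1 day (log2 difference -2.81, SE 0.57, limma adjusted p = 0.00134). Every fish after 1 day was below every fish before in the 3 genes, and fish 4 was the highest of the later group. The AP-1 gene fosb (log2 difference -1.95, limma adjusted p = 0.000149) and jun (log2 difference -1.70, limma adjusted p = 0.000153) fell as well, as did mych, myca, ier2a, ier2b and nr4a3. Of the 12 falls, junbb and egr3 did not hold in all 5 fits.

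**Figure D4:**
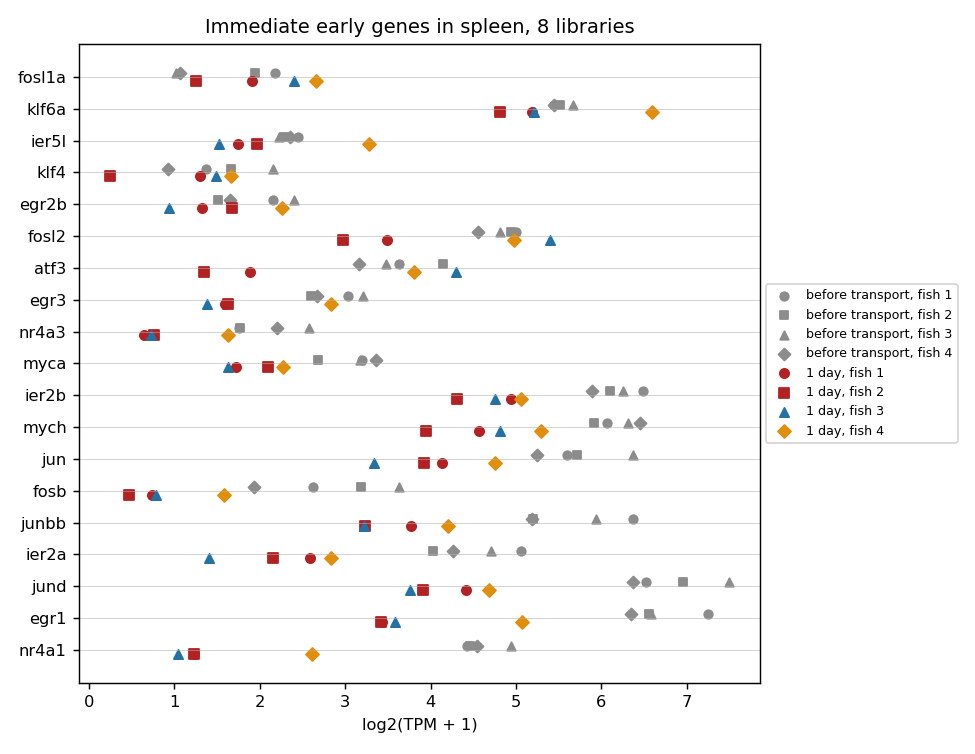
Level of the 19 tested immediate early genes in the 8 spleen libraries, as log2(TPM + 1), ordered by the difference; grey symbols are the 4 fish before transport and coloured symbols the 4 fish after 1 day. From nr4a1 at the bottom up to ier2b, the coloured symbols lie to the left of all grey ones.

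In the glucocorticoid response list falls outnumbered rises, and both were more frequent than over all genes. The list had 20 tested genes, of which 8 fell (40.0% against 15.9% of all genes) and 3 rose (15% against 4.17%), with a median of -0.86. In all 5 fits 6 falls and 1 rise held, where the falls of 3.69% and the rises of 1.79% of all genes did. The other 9 genes did not pass, among them fkbp5, sgk1, and the receptor genes nr3c1 and nr3c2. The leucine zipper gene tsc22d3, known as GILZ and a direct target of the glucocorticoid receptor, read 569, 509, 619.7 and 654 TPM before transport and 139.7, 130.5, 106 and 146 TPM after 1 day (log2 difference -2.17, SE 0.32, limma adjusted p = 5.02e-05). For cebpd, a factor gene of the acute stress response, values were 496, 397, 489 and 476 TPM before transport and 45.6, 58.3, 73 and 20.9 TPM after 1 day (log2 difference -3.33, SE 0.37, limma adjusted p = 1.39e-06). The mTOR inhibitor gene ddit4, a target of both glucocorticoids and HIF, read 456, 512, 548 and 929 TPM before transport and 27.6, 50.9, 60.9 and 10.2 TPM after 1 day (log2 difference -4.21, SE 0.71, limma adjusted p = 0.000244). None of the 3 overlapped between the groups. The values of tsc22d3 were tight within each group, and for ddit4 and cebpd fish 4 was the lowest. The phosphatase gene dusp1 (log2 difference -2.85, limma adjusted p = 0.000465), the insulin signalling gene irs2b (log2 difference -2.18, limma adjusted p = 0.000717) and the cytokine brake socs3a (log2 difference -2.10, limma adjusted p = 0.0084) fell too. The rise that held was foxo3a (log2 difference 1.42, limma adjusted p = 0.00244), while rises of foxo3b and zbtb16a did not pass without fish 3 and 4 (limma adjusted p = 0.484 and 0.466).

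The largest fall of the 665 that held in all 5 fits was that of rrad, which encodes a small GTPase that restrains calcium channels in muscle. It read 602, 386, 526 and 354 TPM before transport and 3.68, 2.84, 7.29 and 5.18 TPM after 1 day (log2 difference -6.37, SE 0.62, limma adjusted p = 5.32e-07). The 2 groups lay more than 10-fold apart at their nearest values, and fish 3 and 4 stood close to fish 1 and 2. At the end of transport rrad already read 7.13 to 61.1 TPM.

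Of 29 tested signals of inflammation 11 fell and 1 rose, with a median of -0.69. In all 5 fits 6 falls held, where those of 3.69% of all genes did. The 11 falls are 37.9% of the list and the rise 3.45%, beside 15.9% and 4.17% of all genes. All genes thus also fell more often than they rose. The NF-kB inhibitor gene nfkbiaa, itself a target of NF-kB, read 428, 313, 476 and 534 TPM before transport and 90.3, 79.1, 214 and 70.8 TPM after 1 day (log2 difference -2.06, SE 0.36, limma adjusted p = 0.000357). The NF-kB subunit gene relb read 18.6, 18.3, 22.2 and 21.1 TPM before transport and 6.84, 5.52, 0.53 and 4.31 TPM after 1 day (log2 difference -2.22, SE 0.36, limma adjusted p = 0.000168). The chemokine receptor gene ccr9a, known from gut-homing lymphocytes and dendritic cells in mammals, read 346, 435, 465 and 534 TPM before transport and 53.1, 61.4, 40.4 and 55 TPM after 1 day (log2 difference -3.06, SE 0.34, limma adjusted p = 1.39e-06). Fish 3 was the highest of the later group for nfkbiaa and the lowest for relb, yet all 4 lay below the fish before transport, and ccr9a was alike in all 4. The growth factor gene of macrophages csf1b (log2 difference -1.79, limma adjusted p = 0.00605) and nfkbiab (log2 difference -1.26, limma adjusted p = 0.0122) also fell in all 5 fits. The cytokine gene il1b ran from 1.42 to 3.06 TPM before transport and from 0.48 to 1.76 TPM after 1 day, and its fall (log2 difference -0.76, limma adjusted p = 0.0468) did not hold without fish 3 and 4 (limma adjusted p = 0.0623). The list's single rise, of the flagellin receptor gene tlr5a, did not hold there either (0.0683). Of the 10 acute phase genes tested none was called.

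Of the circadian clock genes, whose levels follow the hour of the day, a pair of repressors fell. The gene nr1d2a read 231, 188, 237 and 262 TPM before transport and 51.3, 56.9, 67 and 101 TPM after 1 day (log2 difference -1.76, SE 0.26, limma adjusted p = 4.63e-05) and fell without overlap in all 5 fits. Its relative nr1d1 was at 0.84 to 1.45 TPM before transport and its fall (log2 difference -0.59, limma adjusted p = 0.021) did not pass without fish 3 and 4 (limma adjusted p = 0.0942). No other of the 20 clock genes tested was called, so 10% of them fell against 15.9% of all genes. The labels used here give no hour of sampling.

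Of 28 tested genes of the hypoxia response 2 rose and 4 fell between before transport and 1 day. The shares of 7.14% and 14.3% are near the 4.17% and 15.9% of all genes. The list median was -0.31 against -0.23 over all genes, and 0.18 against 0.16 without the 10 most abundant genes. In 21 of the 28 all 4 spleens at the end of transport were above all 4 before it, as in 12.3% of all genes. Side by side, the oxygen sensor gene egln3 read 4.82 to 11.9 TPM before transport, 109.7 to 336 TPM at its end and 1.38 to 9.74 TPM after 1 day. The collagen hydroxylase gene p4ha1b read 11.1 to 17.5 TPM, 204 to 336 TPM and 4.45 to 20.5 TPM at the same 3 times. These 2 were picked after their values were seen, and neither passed the test between before transport and 1 day (limma adjusted p = 0.633 and 0.458).

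Of the 6 called genes, pfkfb3, whose product drives glycolysis, read 5.61, 5.16, 4.18 and 9.79 TPM before transport and 22.7, 26.9, 30.6 and 50.6 TPM after 1 day (log2 difference 2.22, SE 0.47, limma adjusted p = 0.00177). Values of p4ha2, a collagen hydroxylase, were 13.2, 18.4, 12.4 and 10.5 TPM before transport and 2.26, 4.1, 1.04 and 9.02 TPM after 1 day (log2 difference -1.74, SE 0.39, limma adjusted p = 0.00246). Both differed without overlap and in all 5 fits. A rise of the mitophagy receptor gene bnip3la (log2 difference 0.89, limma adjusted p = 0.0373) held in those fits but was lost without any 1 of 7 of the 8 libraries (limma adjusted p = 0.0533 to 0.136). The other falls were ddit4, given above, egln1a and ndrg1a, of which the last 2 did not pass without fish 3 and 4 (limma adjusted p = 0.136 and 0.138). Of 16 glycolysis genes pfkmb rose (6.25% against 4.17% of all genes) and aldoab fell (6.25% against 15.9%), neither of them in every fit.

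Several antioxidant genes were higher. In the list of oxidative stress defence 6 of 26 rose (23.1% against 4.17% of all genes) and 2 fell (7.69% against 15.9%), with a median of -0.04. Of the rises 4 held in all 5 fits, where those of 1.79% of all genes did. Catalase, which is abundant in red cells, is encoded by cat, which read 51.3, 58.3, 51.4 and 50.6 TPM before transport and 153, 115, 83.2 and 465 TPM after 1 day (log2 difference 1.60, SE 0.33, limma adjusted p = 0.00134). The enzyme gene pgd, whose product makes NADPH, read 39.4, 46.6, 31.1 and 52.8 TPM before transport and 165, 154, 75.4 and 236 TPM after 1 day (log2 difference 1.78, SE 0.42, limma adjusted p = 0.00372). The cystine carrier gene slc7a11 read 0.89, 0.75, 1.21 and 1.59 TPM before transport and 7.6, 4.34, 5.12 and 7.74 TPM after 1 day (log2 difference 1.75, SE 0.39, limma adjusted p = 0.00231). The groups did not overlap in any of the 3. The fourth was gsr, glutathione reductase (log2 difference 1.01, limma adjusted p = 0.0361), which was lost without any 1 of 6 libraries (limma adjusted p = 0.0538 to 0.114). In the amino acid list, of 31 tested 3 rose (9.68%) and 5 fell (16.1%, near the 15.9% of all genes), with a median of 0.11. The glutaminase gene gls2b rose (log2 difference 1.72, limma adjusted p = 0.000162) and the glutamine synthetase gene glula fell (log2 difference -1.76, limma adjusted p = 0.00231), both in all 5 fits, as did the fall of got1 and the rise of slc7a11. The xanthine dehydrogenase gene xdh read 1.23, 0.92, 0.49 and 1.16 TPM before transport and 5.7, 4.71, 6.03 and 23.8 TPM after 1 day (log2 difference 2.23, SE 0.44, limma adjusted p = 0.00106) and held as well.

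Of the 40 lists that with the most falls, of cytosolic ribosomal proteins, fell furthest in fish 3 and 4, and without them its falls depended on the scaling. Of 72 tested 66 fell (91.7% against 15.9% of all genes) and none rose, with a median of -1.85, but none held in all 5 fits. In single fish the median of the list was -0.57 and -0.68 in fish 1 and 2, where the median over all genes was -0.35 and -0.44, against -3.73 and -2.53 in fish 3 and 4. Without fish 3 and 4, 29 of the 72 still fell, where 12.1% of all genes did. With median-of-ratios rescaling as well 1 rose and none fell, where 5.96% of all genes rose and 6.91% fell. The gene rpl37 shows the pattern, with 4655, 3581, 4758 and 4268 TPM before transport and 2439, 2172, 274 and 609 TPM after 1 day. Fish 1 and 2 were lower than before transport and alike, and fish 3 and 4 were lower by far. In fish 3 the genes rps3a and rps4x of the same list went the other way, to the 2 highest values of that library, and their direction over the 4 fish turned from higher (0.94 and 0.50) to lower without fish 3 and 4 (-0.57 and -0.75).

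Subunits of the respiratory chain also fell furthest in fish 3 and 4. Of 34 tested 15 fell (44.1% against 15.9% of all genes, median -0.78), none in all 5 fits. Without fish 3 and 4, 1 fell, where 12.1% of all genes did. The respiratory chain subunit gene ndufa4a read 401, 341, 366 and 392 TPM before transport and 228, 211, 24.2 and 53.6 TPM after 1 day. Fish 3 and 4 were the low ones, and without them the difference was -0.77 (limma adjusted p = 0.0835). Genes of ribosome assembly rose in 4 of 39 (10.3%, median 0.34) and aminoacyl-tRNA synthetases in 1 of 18 (5.56%, median 0.60), where 4.17% of all genes rose. None of these rises held in all 5 fits. After median-of-ratios rescaling the counts became 20 rises and 2 falls, and 13 rises, where 16.3% of all genes rose and 18.0% fell. Without fish 3 and 4 they were 0 in both lists, where 2.07% of all genes rose and 12.1% fell. With the rescaling and the removal together 11 of the 39 and 3 of the 18 rose, where 5.96% of all genes did. None of 29 proteasome genes was called (median 0.20). After median-of-ratios rescaling 10 rose, where 16.3% of all genes did, and without the 10 most abundant genes 22, where 20.1% did. For these 5 lists the counts therefore depended on the scaling or on fish 3 and 4.

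Chaperone and stress genes of the endoplasmic reticulum were called lower about as often as all genes. Of 33 tested 6 fell (18.2% against 15.9% of all genes) and none rose. The list median was -0.24 against -0.23 over all genes, and 0.23 against 0.16 without the 10 most abundant genes. Only ddit3, the CHOP factor, held in all 5 fits: it read 39.7, 41.4, 47.9 and 44.6 TPM before transport and 11.9, 8.74, 10.3 and 23.6 TPM after 1 day (log2 difference -1.70, SE 0.31, limma adjusted p = 0.000592). Of 20 cytosolic heat shock genes 4 fell (20% against 15.9% of all genes). The median of this list was -0.37, and 0.10 without those 10 genes, where all genes had -0.23 and 0.16. The small chaperone gene hspb1 held in all 5 fits: it read 96.7, 47, 106 and 74.8 TPM before transport and 16.2, 22.3, 5.07 and 9.36 TPM after 1 day (log2 difference -2.64, SE 0.48, limma adjusted p = 0.000498). Both genes were lower in all 4 fish. The abundant chaperone gene hsp90ab1 read 1569, 1304, 1511 and 1871 TPM before transport and 675, 639, 698 and 1784 TPM after 1 day, so that fish 4 lay within the range before transport and the other 3 below it.

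Proliferation genes had medians below those of all genes in fish 1, 2 and 3 and close to theirs in fish 4, at -1.05, -1.10, -0.89 and 0.40 for the cell cycle list. Cell cycle genes gave 6 falls of 32 (18.8%, median -0.64) and DNA replication genes 4 of 29 (13.8%, median -0.54), shares near the 15.9% of all genes, and of these only rfc5 (log2 difference -0.96, limma adjusted p = 0.0142) held in all 5 fits, but not without fish 3 alone (limma adjusted p = 0.0652). The cyclin gene ccnb1 read 34.1, 10.4, 11.2 and 14.1 TPM before transport and 3.34, 3.1, 2.93 and 9.36 TPM after 1 day, with fish 4 close to the range before transport. In the list of apoptosis and cell stress 7 of 18 fell (38.9% against 15.9% of all genes) and 3 rose (16.7% against 4.17%). Its median was -0.30 against -0.23 over all genes, and 0.17 against 0.16 without the 10 most abundant genes. The stress sensor gene sesn1 read 167, 217, 212 and 327 TPM before transport and 39.9, 49.6, 75.7 and 137 TPM after 1 day (log2 difference -1.71, SE 0.42, limma adjusted p = 0.00541) and fell without overlap in all 5 fits. The antiproliferative gene btg1 fell in all 5 fits with 1 overlap (log2 difference -1.38, limma adjusted p = 0.00635). A rise of sesn2 held too (log2 difference 0.86, limma adjusted p = 0.01).

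Lipid genes gave little that held. Cholesterol synthesis genes gave 5 falls (25% against 15.9% of all genes) and 1 rise of 20 (median -0.02), of which only the fall of sqlea, squalene epoxidase, held in all 5 fits, at levels of 1.39 TPM or less. Fatty acid genes gave 4 falls (14.8%) and 1 rise (3.70%) of 27 (median -0.27), near the shares of all genes, none of them in all 5 fits. Among them fabp4a, a fatty acid carrier of fat and endothelial cells, read 777, 576, 754 and 723 TPM before transport and 324, 534, 47.4 and 143 TPM after 1 day, with fish 3 and 4 the lowest.

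Markers of tissues next to the spleen were counted as a check of the dissection. Those of hepatocytes summed to 336 to 721 TPM before transport and 155 to 752 TPM after 1 day. Of 20 tested 1 rose (5% against 4.17% of all genes) and none fell. Exocrine pancreas genes summed to 37.6 to 5388 TPM before transport and 84.9 to 998 TPM after 1 day, with none of 6 called and wide spread within both groups. Of 10 adipocyte genes 3 fell (30% against 15.9% of all genes) and 1 rose (10% against 4.17%), none in all 5 fits. Of the 3 gut and 2 muscle genes tested none was called. The single endocrine pancreas gene tested, scg3, was at 7.17 TPM or less and fell (log2 difference -1.60, limma adjusted p = 0.00328). The part of neighbouring tissue in the results above was not tested.

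Further genes named by the rule belong to no list. The phosphate carrier gene slc20a1a read 11.1, 26.9, 14.8 and 15 TPM before transport and 110.4, 115, 99.4 and 371 TPM after 1 day (log2 difference 3.11, SE 0.40, limma adjusted p = 1.02e-05). The ferric reductase gene frrs1a read 4.29, 7.87, 6.57 and 4.36 TPM before transport and 35.4, 31.3, 29.4 and 155 TPM after 1 day (log2 difference 2.88, SE 0.41, limma adjusted p = 3.41e-05). Both were alike in fish 1, 2 and 3 and far higher in fish 4, with no overlap. The lipid flippase gene atp8b4 (log2 difference 3.11, limma adjusted p = 6.68e-05), the factor gene plagl2 (log2 difference 2.98, limma adjusted p = 0.000134), icam5 (log2 difference 2.88, limma adjusted p = 0.000305) and si:ch211-284o19.8 (log2 difference 3.23, limma adjusted p = 0.00328) rose in all 5 fits. Other large rises did not hold. The gene ahnak, which encodes a very large scaffold protein, read 1.8, 1.43, 2.59 and 1.72 TPM before transport and 4.25, 2.64, 115 and 388 TPM after 1 day, so that fish 1 and 2 stood just above the first level and fish 3 and 4 far above it. The metalloreductase gene steap4 read 2.47, 0.96, 0.72 and 0.97 TPM before transport and 16.6, 2.62, 82.1 and 17.3 TPM after 1 day, with fish 2 close to the level before transport, and was lost without fish 3 after 1 day or without fish 3 or 4 of the earlier group (limma adjusted p = 0.131, 0.0518 and 0.0515).

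Among the largest falls outside the lists was mafk, a small partner of stress transcription factors, which read 26.9, 32.3, 39.7 and 36.7 TPM before transport and 5.21, 1.86, 0.96 and 1.47 TPM after 1 day (log2 difference -3.50, SE 0.36, limma adjusted p = 9.93e-07). The signalling regulator gene rgs13, known from B cells and mast cells in mammals, read 389, 389, 539 and 636 TPM before transport and 66.3, 56.2, 44.7 and 61.6 TPM after 1 day (log2 difference -3.05, SE 0.34, limma adjusted p = 1.39e-06). Both fell in all 4 fish without overlap. In all 5 fits si:dkey-63b1.1 (log2 difference -3.72, limma adjusted p = 1.16e-06) and cunh11orf96 (log2 difference -3.15, limma adjusted p = 0.000516) fell too. Falls of s100w and atp5l were not past the test without fish 3 and 4 (limma adjusted p = 0.112 and 0.152). A fall of si:ch73-335l21.4 was lost without fish 3 after 1 day or without fish 1 or 3 of the earlier group (limma adjusted p = 0.0675, 0.106 and 0.0721).

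The same 2 times were sampled in liver, and the difference between the spleen's change and the liver's was tested as an interaction over all 68 libraries. Of 18666 genes 3272 passed (17.5%), 1211 with the spleen change the higher (6.49%) and 2061 with it the lower (11.0%), and without spleen fish 3 and 4 of the 1 day group 1716 passed (9.19%), 2.51% higher and 6.69% lower. Of the 18 red-cell genes 16 had the higher change in spleen, and 8 without those fish. Of the 114 named genes, which were chosen mainly on the spleen change, 53 passed, and 34 of these also without those fish.

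Among the named genes the largest negative interaction was that of rrad, at -6.65 (limma adjusted p = 5.33e-08). In liver it was near 0 at both times, at 0.440 ± 0.253 and 1.17 ± 1.91 TPM (SD, n = 4). The sterol synthesis genes fdps and tm7sf2 differed by -4.64 and -4.49 (limma adjusted p = 8.85e-05 and 4.04e-05), with the larger move in liver. There fdps was at 3.23 ± 1.86 and 77.6 ± 49.0 TPM (SD, n = 4), and in spleen it read 8.61, 8.41, 7.67 and 8.19 TPM before transport and 6.67, 5.14, 2.78 and 9.5 TPM after 1 day. Across the sterol list 11 of 22 genes had the lower change in spleen, where 11.0% of all genes did. Without fish 3 and 4 there were also 11, where 6.69% of all genes had it. The 2 fits shared 10 of these genes: fdft1 was lost (limma adjusted p = 0.163) and ggps1 gained (0.013). Upward, slc20a1a differed by 4.39 (limma adjusted p = 2.65e-07), xdh by 3.93 (2.8e-05) and ahnak by 4.51 (0.000978), the last not without fish 3 and 4 (limma adjusted p = 0.095). The liver level of slc20a1a was 49.9 ± 21.0 TPM before transport and 21.4 ± 12.4 TPM after 1 day, and that of xdh 193 ± 193 and 49.2 ± 24.8 TPM (SD, n = 4), while both rose in spleen.

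Other genes gave no interaction past the test. For tsc22d3, which fell in spleen by 2.17 on the log2 scale, the liver change was -1.90 (interaction -0.26, limma adjusted p = 0.75). For ddit4 it was -3.27 (interaction -0.93, 0.577), and for mmp9, which was at 0.760 ± 0.623 TPM in liver before transport and 25 ± 13.5 TPM after 1 day (SD, n = 4), it was 3.81 (interaction 2.67, 0.0797). A p above the threshold does not show that the tissues changed alike.

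The later groups are set beside the 1 day group as levels, without a test. At the end of transport rrad was at 7.13 to 61.1 TPM, below all fish before it, and ddit4 at 530 to 1784 TPM. The gene rrad was at 4.75 ± 1.95 TPM after 1 day, at 190 ± 183, 249 ± 158 and 289 ± 240 TPM in fish labelled normal at 3, 4 and 5 days, and at 4.76 ± 1.51, 2.67 ± 1.30 and 11.5 ± 10.7 TPM in fish labelled abnormal (SD, n = 4, and n = 3 at 3 days). For ddit4 the level of 37.4 ± 22.9 TPM after 1 day stood beside 604 ± 177 to 953 ± 725 TPM in the normal groups and 30.5 ± 5.08 to 97.6 ± 95.7 TPM in the abnormal ones. Levels of alas2 were 30.6 to 326 TPM over the normal libraries and 291 to 1020 TPM over the abnormal ones, against 612 to 3113 TPM after 1 day. For rrad 8 of the 11 normal libraries lay below all 4 fish before transport, and 1 above them, whereas for ddit4 1 lay below and 2 above. Every normal library of rrad, at 35.7 TPM or more, was above every fish after 1 day, and 1 abnormal library, at 27.1 TPM, came close to that level. For alas2 the abnormal libraries were all above the fish before transport and partly overlapped the 1 day group, and 7 of the 11 normal libraries were below the fish before transport.

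Other genes had other courses. The level of mmp9 was already 139 to 458 TPM at the end of transport, above all fish before it, and the 1 day group had the highest mean of the 9 groups. The level of egr1 was 80.4 to 151 TPM before transport and below that range in each library of the 1 day group and in each later library but 1, which read 111 TPM at 5 days in the normal group. For tcf21, levels were 344 to 666 TPM at the end of transport, overlapping those before it, then 143 to 391 TPM over the normal groups and 33.7 to 207 TPM over the abnormal ones.

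**Figure D5:**
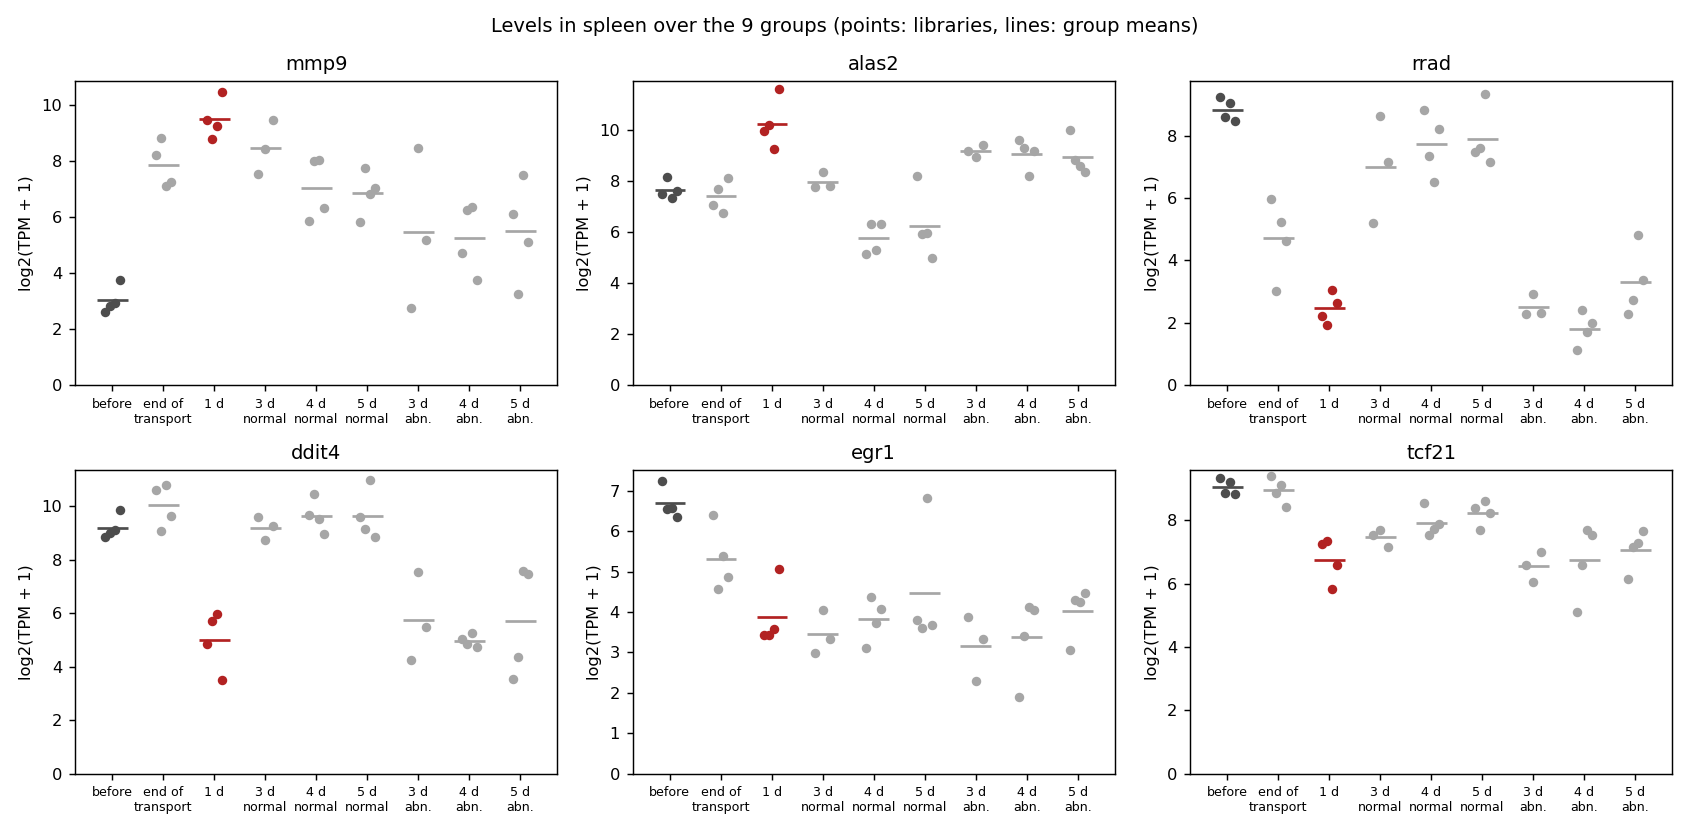
Level of 6 genes in every library of the 9 spleen groups, as log2(TPM + 1), with lines for group means; dark points are the fish before transport, red points the fish after 1 day, and abn. stands for abnormal. The genes rrad and ddit4 are low after 1 day and in the abnormal groups, and mmp9 is highest after 1 day. At the end of transport rrad is already below all fish before it, while ddit4 is not.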

How the data were processed

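RNA from liver and spleen was depleted of rRNA and sequenced with a directional kit, per the labels' protocols. The authors trimmed reads with fastp 0.23.2 and quantified them with Salmon 1.10.0, per the submitters' processing notes; the transcriptome and annotation used are not given in the sources used here. The deposited table holds TPM values for 18666 genes in 68 libraries, which sum to between 995985 and 998170 TPM over the 8 libraries compared. TPM keeps no depth, so the reads behind a value are unknown and no counting interval is given. Symbols are those of the table. Of its genes 18657 were found in the RefSeq gene table of the species, and the other 9 have names in the form of dates. Salmon can divide reads among near-identical genes.

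Values were used as log2(TPM + 1). Genes had to reach 1 TPM in 3 or more of the 34 spleen libraries, which 17998 did, and were fitted in limma 3.58.1 under R 4.3.3, with all 9 spleen groups sharing 1 estimate of the spread (trend and empirical Bayes moderation, 25 residual and 4.89 prior degrees of freedom), and p-values were adjusted by Benjamini-Hochberg with a threshold of 0.05. The difference between spleen and liver changes was fitted over 68 libraries in 18 groups and 18666 genes. The procedure was tested on simulated data in which 100 genes each were moved by 1 or by 2 on the log2 scale. The spleen test recovered 21% and 83% of them and the interaction test 4% and 68%, with 3 false calls in each. The simulated noise was independent with 1 spread per gene, so it held no libraries like fish 3 and 4. Alternatives were pseudocounts of 0.1 and 0.5, no filter or one of 5 TPM, rescaling of libraries by median ratios, removal of the 10 most abundant genes, the 8 libraries alone, a replicate block, array weights, removal of each library in turn and of fish 3 and 4 after 1 day. The joint rescaling and removal was added after seeing the data.

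Genes were named by a rule: the 12 largest rises and 12 largest falls past the threshold with at least 5 TPM in the higher group, no overlap and a gene symbol, up to 3 called members of each list by smallest p, the 5 most abundant genes and the 10 removed, and the 3 largest interactions in each direction. It gave 114 genes. Members and the 40 gene lists, of which that of mitochondrial DNA transcripts had no member tested, were chosen with earlier results of these data known, and other list members named in the text were picked after their values were seen. Results for some genes are not reported here.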

Additional observations from a re-analysis of the deposited data

Results flagged for a closer look

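Single libraries lay far from the other 3 of their group in 23 of 306 groups of 4 values that were checked, by Dixon's gap test. Chance alone marks about 1 in 20 such groups. Fish 4 after 1 day was the outlying library for slc20a1a (371 TPM), frrs1a (155 TPM), si:ch73-335l21.4 (0.19 TPM), nr4a1 (5.13 TPM), hsp90ab1 (1784 TPM), ccnb1 (9.36 TPM), gp9 (78.5 TPM) and xdh (23.8 TPM). It was also the highest of its group in the summed level of the lists cytosolic heat shock (3042 TPM), cholesterol synthesis (225 TPM), cell cycle and mitosis (427 TPM), circadian clock (809 TPM), extracellular matrix (5932 TPM) and erythroid cells (11939 TPM). Fish 3 after 1 day was the outlying library for nr1d1 (0.19 TPM), rps3a (274347 TPM) and LOC119888605 (1310.2 TPM), and for the summed list fatty acid oxidation and lipolysis (8642 TPM). Before transport outlying values were those of sqlea (0.51 TPM in fish 3) and cat (58.3 TPM in fish 2), and of the hypoxia response list (1646 TPM in fish 4) and the haem and iron handling list (6153 TPM in fish 2). What these libraries share was not tested.

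The change from before transport to 1 day differed between spleen and liver for 3272 genes by the interaction test in limma, at an adjusted p of 0.05. Values here are log2 differences, spleen change minus liver change, for named genes that passed. Red-cell, haem and iron genes had the higher change in spleen: sptb (3.60), ank1a (3.40), uros (1.59), tfr1a (2.52) and slc25a37 (1.71). So had the granulocyte genes alox5a (2.98) and cebp1 (2.53), nfe2 of the thrombocyte list (1.22), the antioxidant genes cat (2.57) and slc7a11 (1.95), and ahnak (4.51), slc20a1a (4.39), xdh (3.93), plagl2 (3.34), atp8b4 (2.77), frrs1a (2.37), pfkmb (2.09) and gls2b (1.501).

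The spleen change was the lower for the stress and early response genes rrad (-6.65), nr4a1 (-2.63), jund (-1.32), fosb (-1.58), cebpd (-2.41), mafk (-3.11), relb (-1.77), nfkbiaa (-3.47), ddit3 (-2.28), atf4b (-2.21) and hspb1 (-2.36). It was lower for the sterol genes fdps (-4.64), tm7sf2 (-4.49), sqlea (-4.18), sc5d (-3.23) and dhcr7 (-2.82), for the ribosomal protein genes rpl37 (-2.40) and rps15 (-2.41) and for the mitochondrial genes atp5l (-4.20), ndufa4a (-2.30), ndufa2 (-1.86) and sdhc (-1.53). The same held for the immune and stroma genes batf3 (-2.41), c1qb (-1.73), prf1.5 (-1.10), ccr9a (-1.84), tcf21 (-1.79) and postnb (-1.05), and for fabp4a (-4.19), scg3 (-1.66), sec61b (-2.10), s100w (-2.68), si:dkey-63b1.1 (-3.21) and cunh11orf96 (-3.33). Of the 53 named genes that passed 34 also did so without spleen fish 3 and 4 of the 1 day group. The 19 that did not were the 4 mitochondrial genes, at atp5l -0.79, ndufa4a -1.01, ndufa2 -0.73 and sdhc -0.27 (limma adjusted p = 0.0971 to 0.618), all the immune and stroma genes above but postnb, at batf3 -1.62, c1qb -1.31, prf1.5 -0.87, ccr9a -1.70 and tcf21 -1.24 (0.0557 to 0.227), and ahnak, pfkmb, tfr1a, slc25a37, nfe2, jund, relb, hspb1, sec61b and s100w (0.0576 to 0.465).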

How the results depend on the processing

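Among the alternatives run, the most named genes lost their call with the 8 libraries fitted alone (55), without fish 3 and 4 after 1 day (38, and 34 with rescaling as well) and without fish 3 alone (26), then without fish 1 (17) or fish 4 (16) before transport. Against 3609 called genes (750 higher, 2859 lower), rescaling by median ratios called 6172 (2931 higher), array weights 8946 (8008 lower), the 8 libraries alone 532 (158 higher, 374 lower), and rescaling together with leaving out fish 3 and 4, chosen after seeing the data, 2309 (1240 lower). Leaving out the 10 most abundant genes gave 3638 higher and 1520 lower genes, and leaving out fish 3 and 4 gave 372 higher. Pseudocounts and filters on low values gave 3074 to 3628 called genes. Leaving out 1 library at a time gave 1838 to 6454 called, 516 to 1308 higher and 1214 to 5898 lower genes. The counts moved by over 1.5 times without fish 1 before transport (2368 called, 1818 lower), fish 4 before transport (1897 lower), fish 2 after 1 day (1308 higher), fish 3 after 1 day (1838 called, 1214 lower) and fish 4 after 1 day (6454 called, 5898 lower).

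For the difference between spleen and liver changes, with 3272 called genes, rescaling gave 5510 (2507 higher) and leaving out fish 3 and 4 gave 1716 (468 higher, 1248 lower). Single libraries left out gave 2352 to 4079 called, 598 to 1801 higher and 1327 to 2909 lower genes. The low ends came without liver fish 4 before transport (598 higher), spleen fish 4 (668 higher) and liver fish 3 after 1 day (706 higher) and spleen fish 3 after 1 day (1327 lower).

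Of the 114 named genes, 71 stayed on their side of the threshold without fish 3 and 4, 38 lost the call, 2 gained it and 3 changed sign. With only the 8 libraries 55 lost it, after median-of-ratios rescaling none did, and without the 10 most abundant genes 12 did. Signs changed for 6 named genes. Of those that were not called, these were rps3a (0.94; -0.40 with array weights, -0.57 without fish 3 and 4, -0.93 without fish 3, -0.12 with rescaling as well, at most 1.80 without fish 4 after 1 day) and rps4x (0.50; -0.61, -0.75, -1.16 and -0.30, at most 1.33). LOC119882652 (-0.08) went to 0.16 with rescaling, 0.0307 in the joint fit, and from -0.35 to 0.42 with 1 library left out (0.185 without fish 1 after 1 day). LOC119887490 (-0.20) went to 0.0374, 0.0511 with array weights, 0.126 without fish 3 and 4, 0.575 in the joint fit, and from -1.04 to 0.48 with 1 library left out. The called falls of sec61b and sdhc came to 0.116 and 0.0758 in the joint fit. The cause of these changes was not tested.

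With the replicate number as a block 3822 genes were called (844 higher, 2978 lower), and 3110 (1205 higher, 1905 lower) in the comparison with liver, and no named gene changed its call in the first. The numbers gave no sign of pairing between the times: deviations of same-numbered spleens from their group means correlated at 0.03, -0.07, -0.02 and 0.18. Between liver and spleen they correlated at 0.17 to 0.33 before transport, each best with its own number, and at -0.06 to 0.21 after 1 day. In that later group livers 3 and 4 matched best the spleens of their own number, and livers 1 and 2 did not. The main interaction fit did not pair the tissues. Depth is unknown from TPM, and 4 libraries a group, of which 2 stood apart, limit what could be detected.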

Other observations

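LOC119891466, 1 of the 6 low loci that rose after 1 day beside the abundant pair, ran through the later groups as follows, a set of levels chosen after seeing the data and not tested. It was at 1.45 to 9.58 TPM in spleens before transport, 2.8 to 12.4 TPM at its end and 113 to 561 TPM after 1 day. In fish labelled normal it was at 562 to 1922 TPM at 3 days, 69.4 to 1682 TPM at 4 days and 18.0 to 717 TPM at 5 days. In fish labelled abnormal it was at 45.1 to 358 TPM, 0.99 to 34 TPM and 0.67 to 13.2 TPM on the same days. The libraries labelled normal at 3 days were thus all above those of the 1 day group. The haem synthesis gene alas2, which rose at 1 day with these loci, was at 219 to 326 TPM in normal and 500.2 to 688 TPM in abnormal spleens at 3 days.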
